A study of Homo sapiens with 12 samples.

Results

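The red cell membrane genes described here were SPTB, EPB41, ANK1, SLC4A1, EPB42, RHAG, GYPB and GYPC, which encode parts of the spectrin skeleton of the erythrocyte, the complex that anchors it to the lipid bilayer, and 2 of its glycophorins. They were listed by name, with no threshold on a measured value but with earlier results of these data known, and all 8 were found among the 56266 genes of the deposited tables. RNA-Seq was done on 10 libraries in 5 groups of 2 replicates, all from the established human embryonic stem cell (hESC) line H1. The groups were GATA2-/- hESCs in the undifferentiated state, hemogenic endothelial cells (HEs, sorted as CD34+CD31+CD43-) at day 8 of co-culture with mouse OP9 stromal cells from WT and from GATA2-/- hESCs, and hematopoietic progenitor cells (HPCs, sorted as CD34+CD43+) at day 9 from WT and from GATA2-/- hESCs. The GATA2-/- cells came from 1 targeted H1 clone in which a neomycin resistance cassette under the PGK promoter disrupts GATA2 on both alleles, while WT cells carry no cassette, so the loss of GATA2 and any other feature of that clone cannot be told apart. WT hESCs were not analysed here.

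The red cell membrane owes its strength and its ability to deform to a network of spectrin tetramers that lies under the bilayer. SPTB encodes the beta-spectrin of this network, and the protein encoded by EPB41 ties spectrin ends to actin and to glycophorin C (GYPC). Ankyrin (ANK1) links beta-spectrin to the anion exchanger SLC4A1, which exchanges chloride for bicarbonate, and EPB42 encodes a protein bound to both. RHAG, an ammonium channel of the Rh family, and the sialic acid-rich glycophorin GYPB belong to the same membrane complexes. Inherited defects in SPTB, ANK1, SLC4A1, EPB42 or EPB41 cause spherocytosis or elliptocytosis. RHAG, GYPB and EPB42 are used mainly in the erythroid lineage, whereas GYPC and EPB41 are used in many cell types.

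Values are TPM, in which reads per gene are divided by gene length and scaled to the same total in each library, so the read depth behind a value is unknown. Each group held 2 libraries, and nothing in the labels states that they came from separate differentiations, so the tests measure the spread between these libraries only. With limma on log2(TPM + 1), 21543 genes that reached 1 TPM in 2 or more libraries were fitted together over the 5 groups, and a gene was called at a Benjamini-Hochberg adjusted p under 0.05. All 8 genes entered this test, but SLC4A1 did so only through 1 library of each HPC group. EPB42 reached 1 TPM in 1 WT HE library and otherwise only in HPC libraries. In the HE and HPC tables the column names of replicate 2 carry a common suffix that those of replicate 1 lack, so it split every such group and did not separate groups. The column names of hESC replicates 1 and 2 end in P38 and P58, and they do not say what these numbers mean. GATA2 itself was at 106.8 and 78.03 TPM in WT HEs and 110.9 and 94.06 TPM in GATA2-/- HEs, against 290.1 and 204.2 TPM in WT HPCs and 112.5 and 83.82 TPM in GATA2-/- HPCs. A gene-level value covers every transcript of the disrupted locus, so it does not check the label, and GATA2-/- is used below as the label gives it. Markers of the sorted cells were present, since the sum of 10 endothelial markers was 3957 to 5106 TPM in HEs and 689 to 1013 TPM in HPCs, and SPN, which encodes CD43, was at 1.76 to 8.81 TPM in HEs and 98.0 to 108 TPM in HPCs. PTPRC, which encodes the leukocyte marker CD45, was listed at 0 in all 4 HE libraries and reached at most 3.09 TPM in HPCs. The sum of 11 erythroid markers, globins included, was 25.5 to 118 TPM in HEs and 5028 to 16343 TPM in HPCs.

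Promoter windows from 250 bases before to 50 bases after the start of the gene were taken from RefSeq (GRCh38.p14), which matched 6 of the 8 genes with 9 windows, as SPTB, EPB41 and GYPB had more than 1 start. The windows were searched on both strands for AGATAA with its variant AGATAG and for TGATAA with its variant TGATAG, letters read by GATA factors, the family of the disrupted gene. All 6 matched genes held at least 1 of them, in 7 of the 9 windows, against 29.1% of all 27305 genes and 25% of all 35116 windows in the same table. The other SPTB window and the other EPB41 window held none, and the GYPB windows overlap and hold the same matches. Further matches in SPTB, 92 bases before the start, and in EPB42, 208 bases before it, are not printed. The following stretches show the other matches with 10 bases on each side, because the disrupted gene encodes a factor of this family. They are read 5′ to 3′ on the strand of the gene, and the capitals mark the match, which reads as its reverse complement where it lies on the other strand.

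SPTB, 42 bases before the start, chr14:64879934-64879959, minus strand: gtccctcctcAGATAAtgttatttat

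EPB41, 189 bases before the start, chr1:28886901-28886926, plus strand: cctctggggtCTATCAaagcagcccc

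EPB42, 61 bases before the start, chr15:43221064-43221089, minus strand: ctggcacaagAGATAAaatgaacagg

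RHAG, 31 bases before the start, chr6:49636855-49636880, minus strand: tcctttgttcTTATCAacatctcaca

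GYPB, 77 bases before 1 start and 42 before the other, chr4:144019407-144019432, minus strand: cctcccctgcCTATCAgctgatgatg

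GYPB, 39 bases before 1 start, chr4:144019369-144019394, minus strand: tgggcctggaAGATAAcagctagtag

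GYPC, 64 bases before the start, chr2:126656084-126656109, plus strand: tgaagtctgcCTATCTccgggccaga

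The match in GYPC stands beside those of the other genes although its level followed another order over the stages. The letters of a CACCC box (CNCACCC), read by KLF factors, were found in windows of 4 of the 6 genes, namely SPTB, EPB42, RHAG and GYPC, against 37% of all genes in the table. A match is a description of letters and not evidence of binding.

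Over the 10 libraries, the 8 genes summed to 62.2 to 74.3 TPM in GATA2-/- hESCs, 361 to 455 TPM in HEs and 974 to 1267 TPM in HPCs. GYPC had the highest TPM of the 8 genes in every HE library and GYPB in every HPC library. The group means of SPTB, EPB41, ANK1, RHAG, GYPB, EPB42 and SLC4A1 were all highest in 1 of the 2 HPC groups, and that of GYPC was highest in GATA2-/- HEs. The 2 HPC groups overlapped for SPTB, EPB41, SLC4A1, EPB42 and GYPB, and lay apart for ANK1, RHAG and GYPC. In bulk samples, fewer cells of a type and less RNA per cell cannot be told apart.

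**Figure D1:**
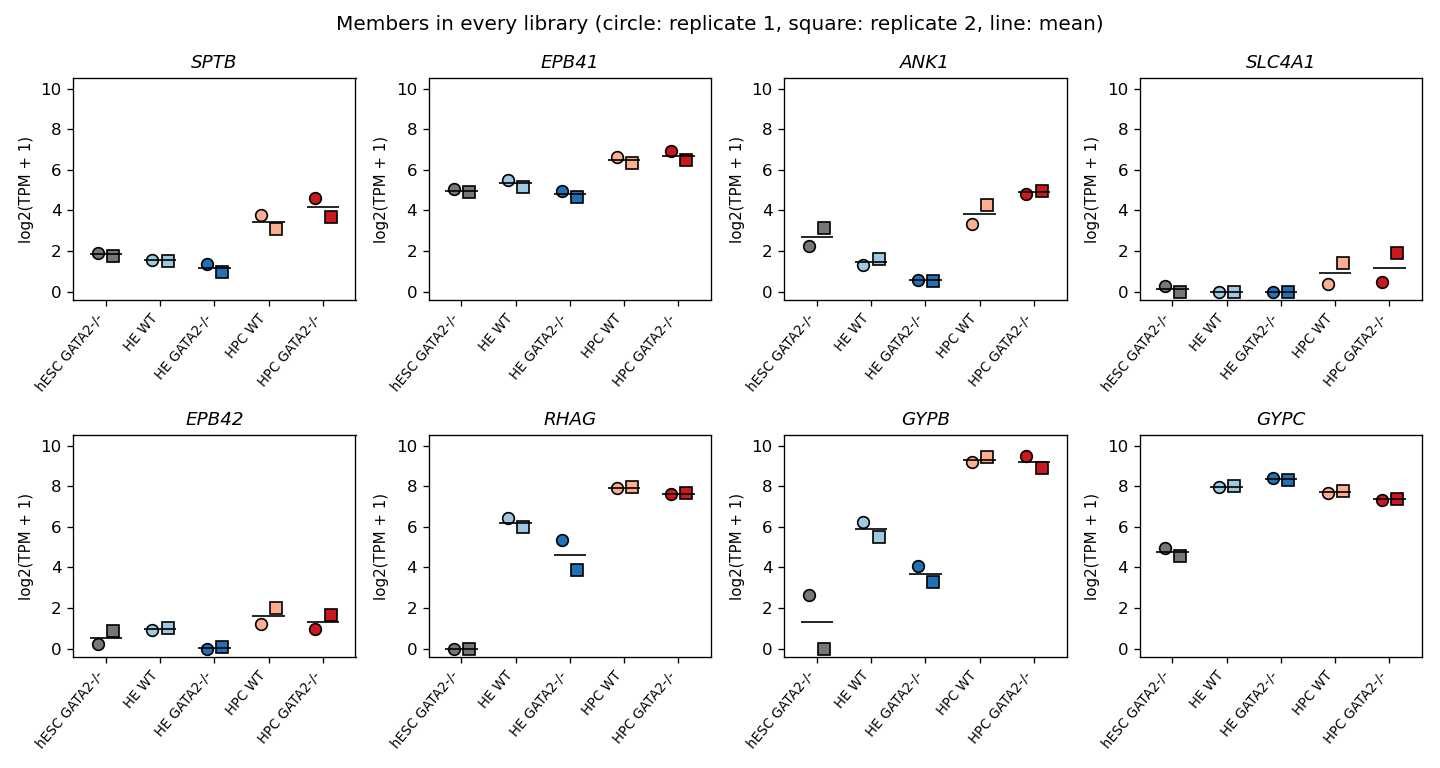
Level of each gene as log2(TPM + 1) on the y axis in the 5 groups on the x axis, with a circle for replicate 1, a square for replicate 2 and a line at their mean. All genes but GYPC sit highest in HPCs, and SLC4A1 and EPB42 reach no more than 3.07 TPM in every library.

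The authors describe the step from HEs to HPCs as the endothelial to hematopoietic transition. Here HEs and HPCs were separately sorted populations from day 8 and day 9, so stage, day and sorting cannot be told apart. In WT cells, 5 of the 8 genes rose from HEs to HPCs and none fell, where 3.32% of all tested genes were called higher and 6.59% lower. In cells labelled GATA2-/- the same 5 genes rose and GYPC fell, where 5.50% of all tested genes were called higher and 7.24% lower. All HPC libraries lay above all HE libraries for 7 of the 8 genes and below them for GYPC, within each genotype. Over all tested genes, groups were apart in these directions for 20.2% and 26.1% in WT and for 26.6% and 24.4% in GATA2-/- cells. The median log2 fold change of the 8 genes was 1.43 in WT and 2.44 in GATA2-/- cells, against medians of -0.01 and 0.03 over all tested genes. The 7 genes and these medians include SLC4A1 and EPB42, which would not have entered the test without the HPC libraries. Markers of several cell types moved over the same step. The sum of 7 mesenchymal markers went from 514.2 and 676 TPM to 72.03 and 194.5 TPM in WT cells. In GATA2-/- cells it went from 368.7 and 575.5 TPM to 94.29 and 164.8 TPM, with 3 of the 7 called lower in each genotype. Beside the erythroid and endothelial sums given above, the sum of 8 megakaryocyte markers went from 125 and 148 TPM to 1529 and 1726 TPM in WT and from 55.5 and 84.2 TPM to 951 and 1412 TPM in GATA2-/- cells, with 6 and 4 of the 8 called higher. The sum of 8 myeloid markers went from 46.2 and 60.7 TPM to 269 and 309 TPM in WT and from 10.2 and 25.5 TPM to 157 and 235 TPM in GATA2-/- cells, with 3 of the 5 tested called higher in each. Transcripts of the mitochondrial genome went from 6.29% and 6.82% of TPM to 8.66% and 9.61% in WT and from 6.38% and 6.50% to 14.8% and 15.1% in GATA2-/- cells. The part of the marker shifts in the results was not tested.

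Of the skeleton genes, SPTB (ENSG00000070182, chromosome 14 from 65213001 to 65346625, minus strand, GRCh37) encodes erythroid beta-spectrin. Its level was 1.99 and 1.85 TPM in WT HEs and 12.83 and 7.43 TPM in WT HPCs. The GATA2-/- libraries were at 1.58 and 0.94 TPM in HEs and 23.60 and 11.79 TPM in HPCs. Both HPC groups lay above all HE libraries, and replicate 1 was the higher library in each HPC group. The log2 fold change was 1.89 (standard error 0.41, adjusted p = 0.022, limma) in WT and 2.99 (standard error 0.41, adjusted p = 0.00218, limma) in GATA2-/- cells.

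EPB41 (ENSG00000159023, chromosome 1 from 29213603 to 29446558, plus strand, GRCh37), whose protein holds spectrin and actin together, was the most abundant of the skeleton genes at every stage. Its level rose from 44.94 and 34.71 TPM in WT HEs to 98.04 and 79.57 TPM in WT HPCs. Among GATA2-/- libraries it rose from 30.52 and 24.25 TPM to 118.66 and 89.65 TPM. The HE and HPC ranges were apart in both genotypes, with log2 fold changes of 1.14 (standard error 0.22, adjusted p = 0.0133, limma) and 1.88 (standard error 0.22, adjusted p = 0.00103, limma).

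Of the genes for the anchoring complex, ANK1 (ENSG00000029534, chromosome 8 from 41510739 to 41754259, minus strand, GRCh37) encodes the ankyrin that holds spectrin to the bilayer. It was at 1.48 and 2.10 TPM in WT HEs and 9.15 and 18.21 TPM in WT HPCs. In the GATA2-/- libraries it went from 0.50 and 0.44 TPM to 27.44 and 30.25 TPM, the lowest and the highest of the 5 groups. The log2 fold change was 2.33 in WT (standard error 0.42, adjusted p = 0.00907, limma) and 4.34 in GATA2-/- cells (standard error 0.42, adjusted p = 0.000485, limma).

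RHAG (ENSG00000112077, chromosome 6 from 49572888 to 49604552, minus strand, GRCh37), the Rh-associated channel, was already well above 1 TPM in HEs. Its level was 84.34 and 62.41 TPM in WT HEs and 236.85 and 246.64 TPM in WT HPCs. It was 39.71 and 13.87 TPM in GATA2-/- HEs and 197.10 and 199.07 TPM in GATA2-/- HPCs. Replicates agreed within 5 TPM of their group mean in both HPC groups, while the GATA2-/- HE libraries lay far from each other. RHAG rose by 1.72 in WT (standard error 0.39, adjusted p = 0.0261, limma) and by 3.02 in GATA2-/- cells (standard error 0.39, adjusted p = 0.00164, limma) on the log2 scale.

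SLC4A1 (ENSG00000004939, chromosome 17 from 42325758 to 42345509, minus strand, GRCh37), the major integral protein of the mature red cell, was listed at 0 in all 4 HE libraries. It was at 0.31 and 1.68 TPM in WT HPCs and 0.38 and 2.76 TPM in GATA2-/- HPCs. EPB42 (ENSG00000166947, chromosome 15 from 43489425 to 43513216, minus strand, GRCh37) was at 0.87 and 1.06 TPM in WT HEs and 1.32 and 3.07 TPM in WT HPCs. EPB42 was listed at 0 and 0.07 TPM in GATA2-/- HEs and was at 0.98 and 2.21 TPM in GATA2-/- HPCs. Every HPC library lay above the HE libraries of its genotype for both genes, but neither passed the test in either genotype, with adjusted p = 0.378 and 0.189 for SLC4A1 and 0.459 and 0.0942 for EPB42 in WT and GATA2-/- cells. With a pseudocount of 0.1, EPB42 passed it in GATA2-/- cells (log2 difference 3.60, adjusted p = 0.0433, limma). The genes of this complex thus differed widely in level in HPCs, from RHAG above 197 TPM to SLC4A1 at no more than 2.76 TPM.

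Of the glycophorins, GYPB (ENSG00000250361, chromosome 4 from 144917257 to 144940533, minus strand, GRCh37), which carries the S and s blood group antigens, showed the largest change of the 8 genes. Its level was 75.05 and 44.53 TPM in WT HEs and 576.38 and 690.79 TPM in WT HPCs. It was 15.72 and 8.83 TPM in GATA2-/- HEs and 721.44 and 472.47 TPM in GATA2-/- HPCs. Ranked by TPM within a library, GYPB went from place 2173 and 3387 in WT HEs to place 218 and 195 in WT HPCs. The log2 fold change was 3.42 in WT (standard error 0.71, adjusted p = 0.0174, limma) and 5.51 in GATA2-/- cells (standard error 0.71, adjusted p = 0.00156, limma).

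GYPC (ENSG00000136732, chromosome 2 from 127413709 to 127454243, plus strand, GRCh37), the glycophorin bound to the EPB41 protein and carrier of the Gerbich antigens, moved the other way. It was at 246.46 and 252.34 TPM in WT HEs and 201.14 and 219.85 TPM in WT HPCs. Cells labelled GATA2-/- had 337.29 and 312.96 TPM in HEs and 161.22 and 166.15 TPM in HPCs. The groups were apart in both genotypes, with the HPCs lower, and the fall passed the test in GATA2-/- cells (log2 fold change -0.98, standard error 0.16, adjusted p = 0.0043, limma) and not in WT cells (log2 fold change -0.24, standard error 0.16, adjusted p = 0.435, limma). The ratio of GYPB to GYPC went from 0.177 and 0.305 in WT HEs to 2.87 to 3.14 in WT HPCs, and from 0.0282 and 0.0466 to 2.84 to 4.48 in GATA2-/- cells.

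**Figure D2:**
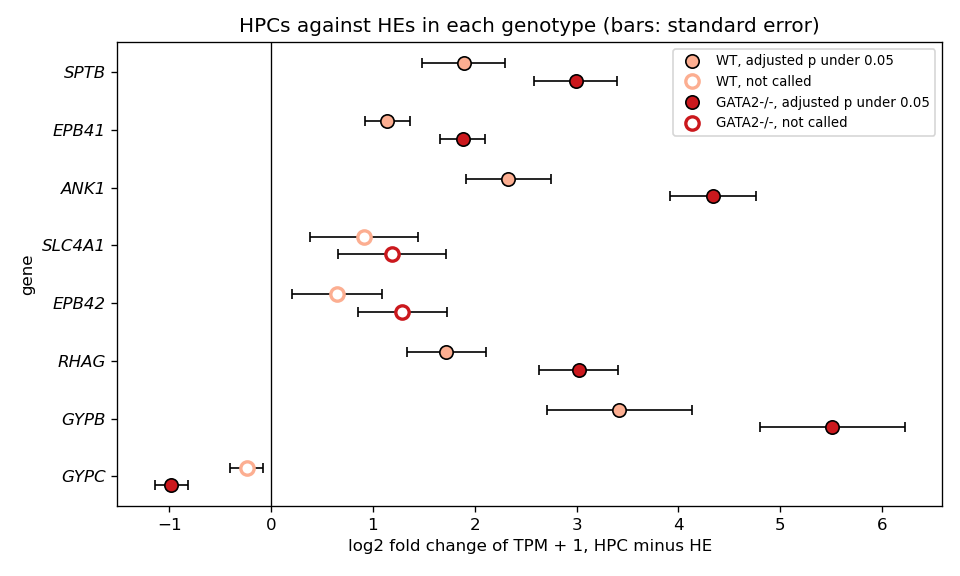
Log2 fold change of TPM + 1 from HEs to HPCs on the x axis for each gene on the y axis, in WT (light) and GATA2-/- cells (dark), with bars for the standard error and filled points for an adjusted p under 0.05. The 5 genes called in WT have a larger value in GATA2-/- cells, and GYPC alone lies under 0.

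The WT calls rested on few libraries. Of the 8 genes, only EPB41 was called without WT HE replicate 1, only ANK1 without WT HE replicate 2 or without WT HPC replicate 1, and EPB41 and SPTB without WT HPC replicate 2, although all 5 kept their direction. Calls over all genes in WT, 2134 with every library, numbered 1093, 874, 1548 and 1004 in these 4 cases in turn, and the higher calls fell from 715 to 362, 259, 334 and 317. In GATA2-/- cells the number of genes called stayed at 6 whichever library was left out, while calls over all genes went from 2745 to between 1299 and 1881 without 1 of the 4 GATA2-/- HE and HPC libraries. The larger change in GATA2-/- cells is the same quantity as the difference of the genotype contrasts given below, and it did not pass the adjusted test for any of the 8 genes.

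The same step was read in non-erythroid relatives of these genes, from the spectrin, ankyrin, EPB41, SLC4 and Rh families. Of 17 tested relatives out of 19, none rose and 4 fell in each genotype, among them SPTAN1, SPTBN1 and EPB41L2. Over all tested genes, 3.32% were called higher and 6.59% lower in WT, and 5.50% and 7.24% in GATA2-/- cells. With shares of higher calls this small, no rise among 17 genes does not set them apart from all genes. The log2 fold changes of the 17 had medians of -0.24 in WT and -0.19 in GATA2-/- cells. SPTAN1, the general alpha-spectrin, went from 162.3 and 149.3 TPM in WT HEs to 8.67 and 5.04 TPM in WT HPCs (log2 fold change -4.36, standard error 0.22, adjusted p = 0.000129, limma), and its change in GATA2-/- cells was -4.04. SPTBN1, the general beta-spectrin, went from 316.6 and 265.7 TPM to 84.24 and 47.53 TPM in WT cells (log2 fold change -2.18, standard error 0.31, adjusted p = 0.00334, limma). ANK2, ANK3 and SLC4A2 passed the test in neither genotype. SLC4A2, the general anion exchanger, was at 63.4 to 99.3 TPM in every HE and HPC library and thus far above SLC4A1.

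Shares of summed TPM set the red cell gene beside its relatives. SPTB made up 0.625% and 0.691% of SPTB plus SPTBN1 in WT HEs and 13.2% and 13.5% in WT HPCs, so SPTBN1 remained the major beta-spectrin of HPCs. In GATA2-/- cells the SPTB share was 0.268% to 0.434% in HEs and 13.6% to 16.2% in HPCs. EPB41 went from 18.8% to 22.6% of EPB41 plus EPB41L2 in WT HEs to 58.1% to 62.7% in WT HPCs. ANK1 made up 8.58% to 15.7% of the 3 ankyrins in WT HEs, 2.90% to 4.06% in GATA2-/- HEs, 39.4% to 70.3% in WT HPCs and 63.8% to 73.5% in GATA2-/- HPCs. ANK2 and ANK3 were not called in either genotype, and the ANK1 share rose with ANK1 itself. SLC4A1 reached at most 4.11% of SLC4A1 plus SLC4A2 in any library. For the spectrin, EPB41 and ankyrin pairs or groups, the HPC libraries lay above the HE libraries.

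**Figure D3:**
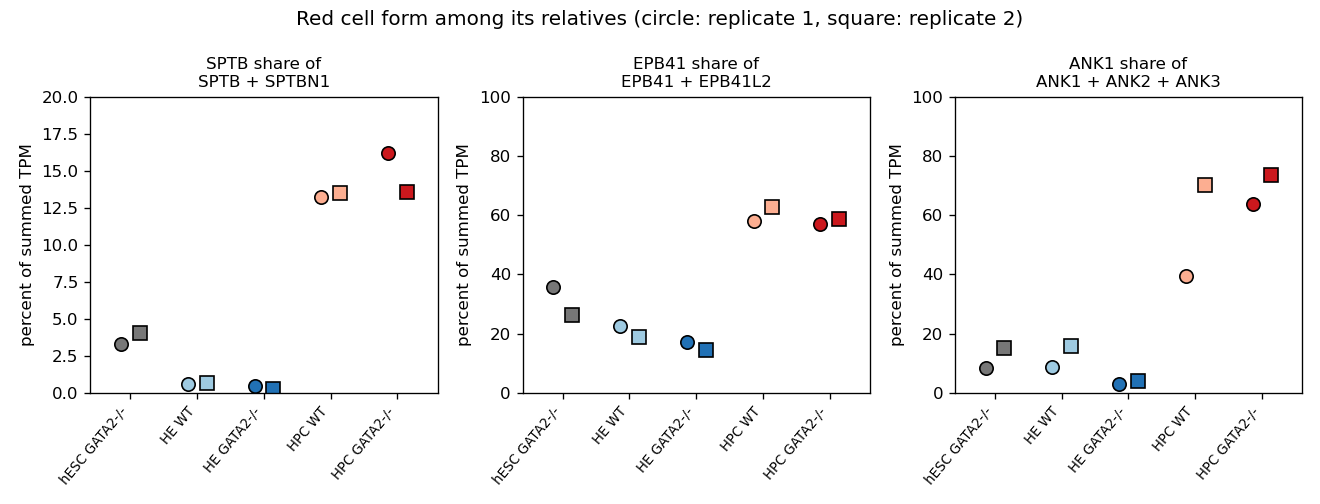
Share of the red cell gene in the summed TPM of its family, in percent on the y axis, in the 5 groups on the x axis, with a circle for replicate 1 and a square for replicate 2. The y axis of the SPTB panel ends at 20%, and the 4 HPC libraries lie above all others in each panel.

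Of 31 other red cell membrane genes, all of them tested, 8 rose and 8 fell in WT and 10 rose and 6 fell in GATA2-/- cells. The shares over all tested genes were 3.32% higher and 6.59% lower in WT and 5.50% and 7.24% in GATA2-/- cells. The median log2 fold changes of the 31 genes were 0.43 and 0.56. The rises in both genotypes included the glycophorin GYPE (2.95 and 6.15), the Kell antigen KEL (2.60 and 3.95), ICAM4 (2.56 and 3.35) and the complement regulator CD55 (2.50 and 2.97), in WT and GATA2-/- cells in turn. The falls in both genotypes included the tropomyosin TPM1 (-2.12 and -2.07), the water channel AQP1 (-1.80 and -1.69), the adducin ADD2 (-1.80 and -1.49), the glucose transporter SLC2A1 (-1.07 and -1.35) and the complement regulator CD59 (-1.02 and -1.50). In WT cells ADD3 also fell, by 1.08 on the log2 scale. Of 16 other erythroid genes (globins, heme synthesis and erythroid factors), 13 rose in WT and 14 in GATA2-/- cells, and none fell.

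The GATA2-/- hESC libraries gave the level before differentiation. RHAG was listed at 0 in both, GYPB was at 5.20 TPM in 1 and listed at 0 in the other, and GYPC was at 29.70 and 22.31 TPM. SPTB was at 2.78 and 2.39 TPM, EPB41 at 32.53 and 28.76 TPM, and ANK1 at 3.70 and 7.88 TPM, so these skeleton and anchor genes were detected in the undifferentiated state. EPB42 was at 0.16 and 0.84 TPM and SLC4A1 at 0.23 TPM in 1 library and listed at 0 in the other.

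Against these hESCs, 3 of the 8 genes were higher and 1 was lower in GATA2-/- HEs, where 13.9% of all tested genes were called higher and 16.1% lower. GYPC rose by 3.61 (standard error 0.16, adjusted p = 1.85e-06, limma) on the log2 scale, and RHAG and GYPB were called higher as well, with adjusted p = 5.53e-05 and 0.0342. The GYPB call was lost in 9 of 17 alternatives, with a log2 fold change of 1.05 without hESC replicate 2, the library in which it was listed at 0. ANK1 fell by 2.14 (standard error 0.42, adjusted p = 0.00503, limma), and its HE libraries lay below both hESC libraries. In GATA2-/- HPCs, 6 of the 8 genes were higher than in these hESCs and none was lower, where 14.2% of all tested genes were called higher and 16.4% lower. ANK1 and SPTB, lower in HEs than in hESCs by group mean, were 2.21 and 2.31 higher in HPCs than in hESCs on the log2 scale (adjusted p = 0.00419 and 0.0031, limma). These comparisons share the hESC libraries with each other, and the HE and HPC libraries with the comparisons above.

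Between genotypes in HEs, none of the 8 genes passed the adjusted test, where 0.0186% of all tested genes did. At an unadjusted p under 0.05 there were 4 of the 8 genes, against 4.85% of all tested genes. The GATA2-/- libraries lay below both WT libraries for SPTB, EPB41, ANK1, EPB42, RHAG and GYPB, against 16.5% of all tested genes with groups apart in that direction, and above them for GYPC, against 13.8%. GYPB, at the values given above, was lower by 2.20 (standard error 0.71, unadjusted p = 0.0133, adjusted p = 0.817, limma) on the log2 scale. RHAG was lower by 1.58 (standard error 0.39, unadjusted p = 0.00315, adjusted p = 0.575, limma), and the difference was -0.85 without GATA2-/- HE replicate 2 and -2.31 without replicate 1. ANK1 and EPB42 were each lower by 0.92, both with an adjusted p of 1, and with a pseudocount of 0.1 the differences were -1.71 and -3.02, neither of them called. EPB41 was lower by 0.52 with an adjusted p of 0.995. GYPC was 0.38 higher (standard error 0.16, unadjusted p = 0.0398, adjusted p = 0.974, limma). Within replicate 1, without the column suffix, the difference was -1.07 for RHAG and -2.19 for GYPB, and within replicate 2, with it, -2.09 and -2.21.

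Of the markers of blood cells, 1 passed the test between genotypes in HEs, the megakaryocyte gene PF4, at 37.33 and 32.12 TPM in WT and 3.66 and 4.70 TPM in GATA2-/- HEs. None of 11 erythroid, 5 tested myeloid and 6 pan-hematopoietic markers was called, nor were the other 7 megakaryocyte markers. The sum of the 11 erythroid markers was 75.9 and 118 TPM in WT HEs and 25.5 and 33.7 TPM in GATA2-/- HEs, with 3 to 4 of them listed at 0 in WT and 4 to 5 in GATA2-/- libraries. The megakaryocyte and myeloid sums, given above for both genotypes, were also lower in both GATA2-/- libraries, with 1 and 1 to 2 megakaryocyte markers at 0 and 2 to 3 myeloid markers at 0 in each group. The pan-hematopoietic sum went the other way, at 758 and 831 TPM in WT and 996 and 1174 TPM in GATA2-/- HEs, with 1 marker at 0 in every library. Most of this sum was CD34, at 640.54 and 605.40 TPM in WT and 1059.60 and 925.00 TPM in GATA2-/- HEs. Of the 6 markers, CD34 alone was higher with groups apart, against 13.8% of all tested genes. VAV1, RUNX1 and MYB were lower with groups apart, against 16.5% of all tested genes. The endothelial sum was 3957 and 4105 TPM in WT and 4443 and 5106 TPM in GATA2-/- HEs. The part of other blood cells in the lower values of RHAG and GYPB was not tested. None of the 31 other red cell membrane genes was called between genotypes in HEs.

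Between genotypes in HPCs, again none of the 8 genes passed the adjusted test, where 0.0603% of all tested genes did, and 2 of them had an unadjusted p under 0.05, against 8.94% of all tested genes. ANK1 was 1.09 higher in GATA2-/- HPCs (standard error 0.42, unadjusted p = 0.0286, adjusted p = 0.481, limma), and its groups were apart, as 19.7% of tested genes were in that direction. GYPC was lower by 0.36 (standard error 0.16, unadjusted p = 0.0492, adjusted p = 0.557, limma) and RHAG by 0.29 (standard error 0.39, adjusted p = 0.867, limma), both with groups apart, against 13.0% of tested genes. The other 5 genes overlapped between genotypes. The ANK1 difference was 0.63 without WT replicate 1 and 1.55 without WT replicate 2. SPTB had a log2 difference of 0.72 (0.24 to 1.19 with a library left out), EPB41 of 0.22, SLC4A1 of 0.28, EPB42 of -0.29 and GYPB of -0.11, and the sign of the last 3 turned when 1 HPC library was left out. The megakaryocyte, myeloid and mitochondrial values given above were also apart between genotypes in HPCs, the first 2 lower and the last higher in GATA2-/- cells, with none of the megakaryocyte or tested myeloid markers called. The part of the first 2 in these differences was not tested. With TPM rescaled after globin and mitochondrial genes were left out, the log2 differences were 1.20 for ANK1, -0.26 for GYPC and -0.19 for RHAG, none of them called.

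**Figure D4:**
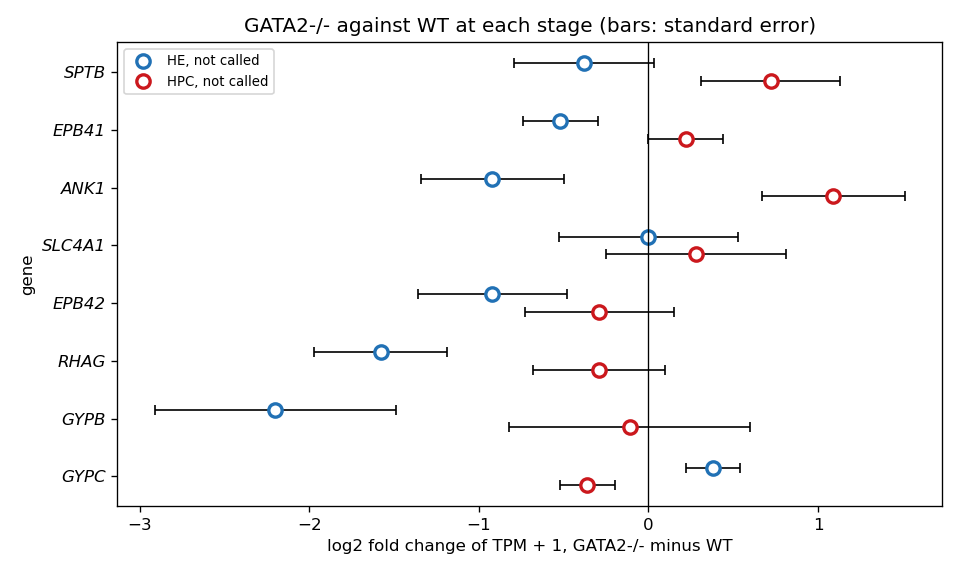
Log2 fold change of TPM + 1 between GATA2-/- and WT cells on the x axis for each gene on the y axis, in HEs (blue) and HPCs (red), with bars for the standard error. Open points mark genes that were not called, which is all of them, and GYPB and RHAG lie lowest in HEs.

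The difference between the HPC and the HE genotype contrasts was tested as an interaction, for which no gene of the 21543 was called (0.00%) and 5.95% had an unadjusted p under 0.05. Among the 8 genes, EPB41, ANK1, RHAG and GYPC had an unadjusted p under 0.05. GYPB, which did not, had the largest interaction of the 8 genes, 2.09 on the log2 scale (1.7 to 2.47 with a library left out). The interaction was 2.01 (standard error 0.59, unadjusted p = 0.00821, adjusted p = 0.665, limma) for ANK1, -0.74 (standard error 0.22, unadjusted p = 0.0093, adjusted p = 0.685, limma) for GYPC, 1.29 (standard error 0.55, unadjusted p = 0.0452, adjusted p = 0.835, limma) for RHAG, which was 0.57 and 2.02 without replicate 2 and replicate 1 of the GATA2-/- HEs, and 0.74 (standard error 0.31, unadjusted p = 0.0426, adjusted p = 0.826, limma) for EPB41. ANK1 was lower in GATA2-/- HEs and higher in GATA2-/- HPCs than in WT in all 4 pairs of libraries at each stage, and GYPC was the reverse.

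GYPB stands in a cluster of related genes on chromosome 4 of GRCh37, with 90540 bases between it and GYPE. Of the distinct 50-base words in GYPB transcripts of GENCODE v44, 13.2% were also found in transcripts of another gene, and of the 30-base words 24.0%. GYPE transcripts held 1.03% of the 50-base and 5.95% of the 30-base words of GYPB, so most of the sharing was with another gene. The reads were short, so counts could be split between related genes, and the values of GYPB and GYPE are uncertain. The promoter windows of GYPB and GYPE had 287 identical bases of 294 aligned, or 97.6%. EPB42 shared 13.2% of its 50-base words with 1 other annotated gene, ENSG00000285117, and GYPC and ANK1 shared none.

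Across the 10 libraries, which share stages and scaling, the level of each gene was set against the mean z score of the other 7. Pearson's r was 0.94 for GYPB, 0.92 for EPB41, 0.81 for SPTB, 0.80 for RHAG, 0.76 for EPB42, 0.71 for ANK1, 0.70 for SLC4A1 and 0.24 for GYPC. Over 11917 other genes with a mean of at least 5 TPM, those most like the mean z score of the 8 genes were HBE1 (r = 0.994), UROS, BZRAP1-AS1, PPTC7, ALAS2, HBG2, TREML2, CXCL2, STXBP5 and CCND3 (r = 0.986). HBE1, the embryonic beta-like globin, was at 3.13 to 15.3 TPM in HEs and 1496 to 4487 TPM in HPCs, and UROS and ALAS2 encode enzymes of heme synthesis. These correlations describe the order of 10 libraries of 3 stages and carry no test.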

How the data were processed

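RNA-Seq of 10 H1-derived libraries was analysed. As the authors describe it, TruSeq libraries were read as short single-end reads, adapters were trimmed, and reads were mapped to hg19 with Bowtie. The submitters' processing notes also name RSEM and the mouse build mm10. The authors' methods do not state how reads from mouse OP9 cells were treated. The deposited values are TPM per gene with 2 decimals, summing to 998299 to 999106 per library. TPM keeps no depth, so no interval for counting error was given.

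Genes were found by symbol and Ensembl ID. The test was that of limma 3.58.1, run under R 4.3.3, on log2(TPM + 1) of the deposited TPM (eBayes with trend, all 5 groups in 1 fit, Benjamini-Hochberg adjustment over 21543 genes), after a check on simulated data. Levels, shares, correlations, word sharing and motifs used Python 3.11.15, pandas 2.3.3, numpy 2.4.6 and Biopython 1.88. Positions are from GENCODE v44 on GRCh37 and promoter letters from RefSeq on GRCh38.p14.

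All 8 genes are named. Of the 31 red cell membrane genes and 19 relatives, counts are given, with the nearest relatives and up to 5 called genes with the largest rise and fall from HEs to HPCs. Some genes that this rule names are not reported here. The 10 most similar genes were named by Pearson's r. The genes, lists and motifs were chosen with earlier results of these data known. Alternatives were a pseudocount of 0.1, no filter, a fit of each comparison's own libraries, quantile normalization, rescaling without 47 globin and mitochondrial genes, eBayes without trend, a replicate block and each library left out.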

Additional observations from a re-analysis of the deposited data

Results flagged for a closer look

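For ANK1, both GATA2-/- libraries lay below both WT libraries in HEs and above them in HPCs, and the difference between the genotype contrasts was 2.01 on the log2 scale. For GYPC, both GATA2-/- libraries lay above both WT libraries in HEs and below them in HPCs, with a difference of -0.74. Neither passed the adjusted interaction test (adjusted p = 0.665 and 0.685, limma), and over all alternatives the lowest adjusted p was 0.557 for ANK1 and 0.597 for GYPC.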

How the results depend on the processing

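Of 383 fold changes of the 8 genes under other settings, 371 kept direction and side of the threshold, 11 lost the call, 1 gained it and none changed sign. Of 546 with a library left out, 519 kept both, 20 lost the call, 1 gained it and 6 changed sign. Those 6 were uncalled. Between genotypes in HPCs, left-out libraries gave -0.23 to 1.00 for SLC4A1 (negative without WT replicate 1, as in the interaction), -0.69 to 0.12 for EPB42 (0.12 without WT replicate 2, 0.06 without GATA2-/- replicate 1) and -0.42 to 0.19 for GYPB (0.02 without WT replicate 2, 0.19 without GATA2-/- replicate 2). The count of genes called from HEs to HPCs in WT, 5, became 0 without the filter on low values, where 1035 of all genes were called in place of 2134, and 1 to 5 with a library left out. No filter also changed all calls from 2745 to 1511 from HEs to HPCs in GATA2-/- cells, from 4 to 87 between genotypes in HEs and from 13 to 29 in HPCs, and from 0 to 30 for the interaction. Rescaling without globin and mitochondrial genes moved the median of all genes from 0.03 to 0.15 from HEs to HPCs in GATA2-/- cells, and the higher and lower calls from 1185 and 1560 to 1635 and 1340. The causes were not tested.

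Groups share replicate numbers. Over all genes, same-numbered libraries deviated together with correlations of -0.014 to 0.123, and the numbers were not taken to pair them. Some genes did shift alike in both HPC groups. The globin sum was 4607 and 13963 TPM in WT and 7087 and 15793 TPM in GATA2-/- HPCs, for replicates 1 and 2. In both HPC groups, replicate 2 was higher for SLC4A1, EPB42, ANK1, RHAG and GYPC and lower for SPTB and EPB41, while GYPB differed between the groups. The source of these shifts was not tested. With the replicate block, the genes called numbered 5 and 6 from HEs to HPCs in WT and GATA2-/- cells, 4 and 6 against hESCs, and 0 between genotypes and for the interaction, as without it. Over all 21543 genes the block gave 2 calls in HEs and 3 in HPCs between genotypes and 0 for the interaction. It gave 2296 and 3002 calls from HEs to HPCs in WT and GATA2-/- cells, against 2134 and 2745 without it. Against hESCs it gave 6803 calls in HEs and 6924 in HPCs, against 6462 and 6586 without it.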
